A study of Rattus norvegicus with 16 samples.

Results

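Cytochrome P450 (CYP) genes of families 1 to 4 were described in liver and epididymal fat, the visceral depot beside the testis, of obese rats. A gene belonged to the set when its symbol placed it in CYP1, CYP2, CYP3 or CYP4 and it reached 1 FPKM (fragments scaled to transcript length and library size) or more in at least 4 of the 16 libraries. Of 22517 gene symbols, 62 matched the families and 39 met the level: 2 CYP1, 21 CYP2, 4 CYP3 and 12 CYP4 genes, of which 3 were CYP4A. The rats were male Zucker (ZDF/GmiCrl-fa/fa) animals, whose fa/fa genotype leaves no working leptin receptor. All groups carried it, and no lean animals were compared. They were bought at 7 weeks of age and fed a Purina chow. Over 2 weeks, at 9 to 11 weeks of age, they received either that chow with R-α-lipoic acid (LA), which mitochondrial dehydrogenases use as a cofactor, or the chow alone in pair-fed amounts (PF). The 8 rats gave 4 groups of 4 libraries, which the labels call biological replicates: LA liver, PF liver, LA fat and PF fat.

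CYP enzymes are haem proteins of the endoplasmic reticulum that take electrons from the reductase Por and insert oxygen into lipophilic substrates. Families 1 to 3 are best known for oxidising drugs, toxins and steroids in hepatocytes, where the receptors AhR, CAR (Nr1i3) and PXR (Nr1i2) induce many of them. Family 4 hydroxylates fatty acids and eicosanoids, and its CYP4A genes are classical targets of the fatty acid receptor PPARα (Ppara) in rodents. In rats several hepatic CYP genes also differ between males and females through growth hormone.

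In the RefSeq table of assembly GRCr8, Cyp4a2, Cyp4a3, Cyp4a1 and Cyp4b1 lie in this order on chromosome 5, with the further copy Cyp4a2l1 between Cyp4a2 and Cyp4a3. The 250 bases before the annotated start were taken from the RefSeq promoter table (GRCr8), which held 33 of the 39 members; those without an entry are Cyp2a2, Cyp2c77-ps, Cyp4a10, Cyp4f17, Cyp4f4 and Cyp4v3. They are shown for 3 genes of this stretch that were higher under LA in every liver library, to set a near-identical pair beside the gene with the largest fold change. All are on the minus strand, at chr5:134170909-134171158 for Cyp4a2, chr5:134352237-134352486 for Cyp4a3 and chr5:134393117-134393366 for Cyp4b1. They are written 5′ to 3′, and capitals mark AGGTCA, the half-site of nuclear receptors, and TGTTTAC, a forkhead motif.
Cyp4a2: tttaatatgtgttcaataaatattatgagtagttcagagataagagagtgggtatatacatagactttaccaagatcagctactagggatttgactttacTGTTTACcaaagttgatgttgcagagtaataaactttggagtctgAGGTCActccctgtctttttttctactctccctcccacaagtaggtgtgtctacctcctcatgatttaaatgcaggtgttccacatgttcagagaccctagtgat
Cyp4a3: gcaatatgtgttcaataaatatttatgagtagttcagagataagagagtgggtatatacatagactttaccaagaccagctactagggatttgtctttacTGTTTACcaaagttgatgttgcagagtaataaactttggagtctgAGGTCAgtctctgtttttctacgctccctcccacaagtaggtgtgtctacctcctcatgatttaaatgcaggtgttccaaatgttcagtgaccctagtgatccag
Cyp4b1: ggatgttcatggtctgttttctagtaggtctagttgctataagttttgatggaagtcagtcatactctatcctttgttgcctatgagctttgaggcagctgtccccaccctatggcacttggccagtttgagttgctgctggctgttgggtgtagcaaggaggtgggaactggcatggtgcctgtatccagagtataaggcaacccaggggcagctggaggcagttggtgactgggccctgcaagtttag
Cyp4a2 and Cyp4a3 were identical at 236 of 250 aligned positions (94.4%), and 5 positions were gaps. Both held AGGTCA at 105 to 100 bases and TGTTTAC at 150 to 144 bases before the start, on the strand of the gene. Cyp4b1 held neither in this window. Searched on both strands, AGGTCA occurred in 10 of 33 members (30.3%) and in 14.1% of the 33469 windows of the table. TGTTTAC occurred in 6 of 33 members (18.2%) and in 3.21% of the windows. The near-identical Cyp4a2 and Cyp4a3 each count among these 6 and among the 10 with AGGTCA, so the hits are not independent. The direct repeat of the nuclear receptor half-site with 1 base between its copies, which contains it, occurred in 0 of 33 members and in 0.0508% of the windows. Other motifs were searched in the same way. The TATA box occurred in 8 of 33 members (24.2%) and in 12.9% of the windows. The core of the AhR response element occurred in 10 of 33 members (30.3%) and in 25.9% of the windows. The interferon response element occurred in 0 of 33 members and in 3.41% of the windows. These shares were not tested. The likeness of Cyp4a2 and Cyp4a3 is of the bases before the start, and the transcripts themselves were not compared. Where transcripts of gene copies are alike, they may share reads. How the authors' counting split such reads is not given in the sources used here, so the separate levels of Cyp4a2 and Cyp4a3, and likewise of Cyp2b1 and Cyp2b2 and of the CYP2C, CYP2D and CYP3A genes, are uncertain.

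The files give no counts, so depth was known in relative terms only. The value of a single fragment, read from the steps between low values and relative to PF liver replicate 1, was 0.722 to 0.894 in LA liver, 0.853 to 1 in PF liver, 0.739 to 0.866 in LA fat and 0.774 to 0.961 in PF fat, where a smaller value means a deeper library. Genes at 1 FPKM or more numbered 9644 to 9738 in LA liver, 9522 to 9689 in PF liver, 11276 to 11439 in LA fat and 11320 to 11480 in PF fat. Alb and Tf were listed at 0 in every liver library, so a 0 can be a failed estimate. Of the 23 matched symbols below the level, 13 were listed at 0 in all 16 libraries, Cyp2c6, Cyp2c7 and Cyp2c13 among them. Just outside it lay Cyp1a1, the classical AhR-induced CYP, with 1 library at 1 FPKM or more (2.03 FPKM in PF liver replicate 4), and Cyp4a8, with 1 library (1.47 FPKM in PF liver replicate 1). Inside it, each member reached 1 FPKM in at least 8 libraries.

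**Figure D1:**
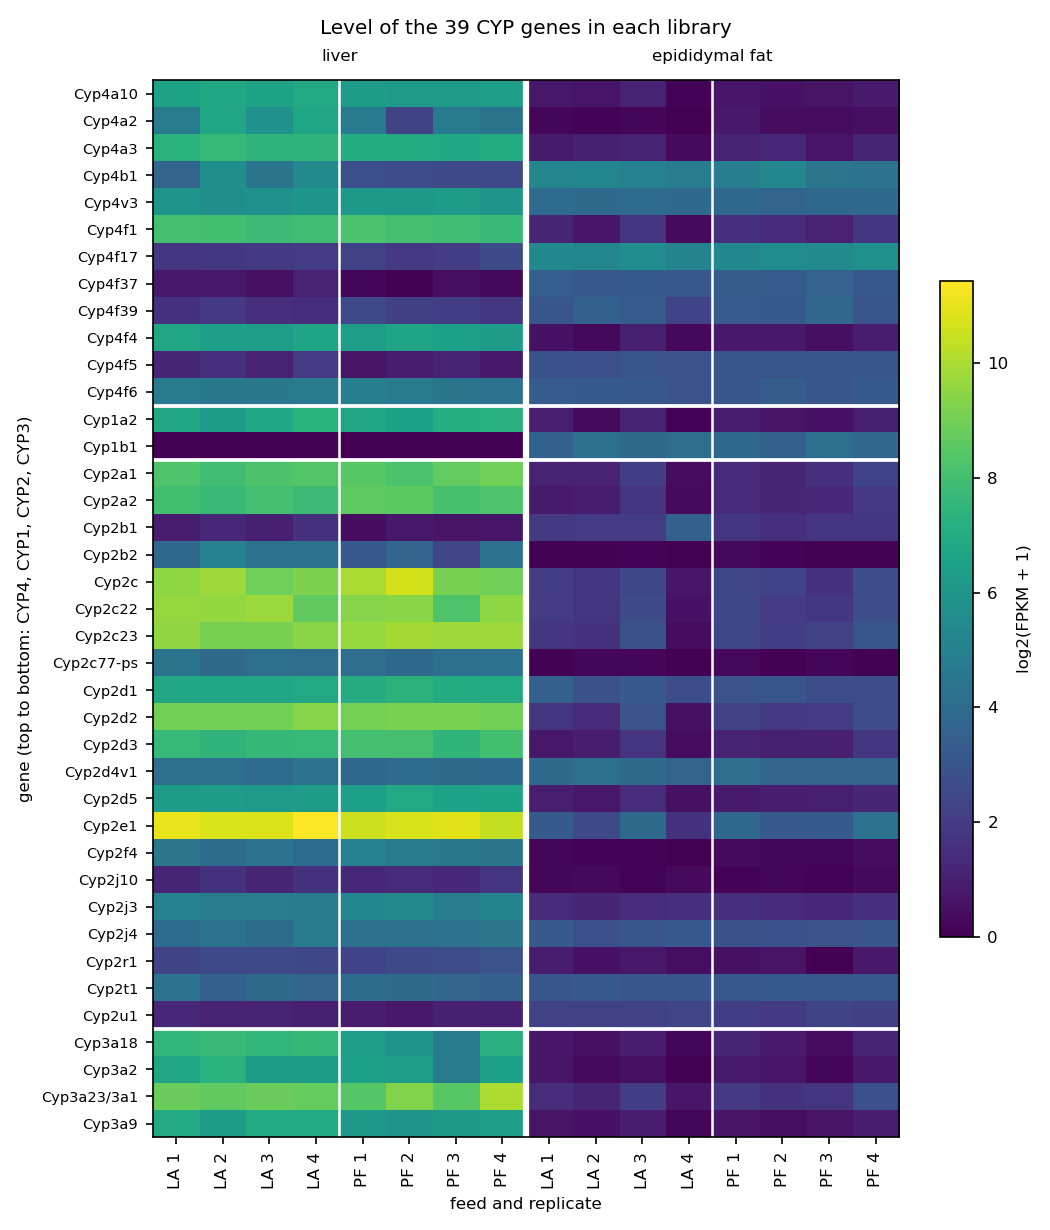
Level of each of the 39 CYP genes as log2(FPKM + 1) (colour scale), with genes in rows by family and the 16 libraries in columns, liver left of fat and LA left of PF. Most CYP2 and CYP3 rows are bright in liver and dark in fat, whereas Cyp1b1, Cyp2b1, Cyp2u1, Cyp4f5, Cyp4f17, Cyp4f37 and Cyp4f39 are brighter in fat under both feeds.

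The liver comparison asked which CYP transcripts differed between LA-fed and pair-fed rats. Under LA, 4 CYP genes were higher (Cyp4a3, Cyp4a10, Cyp4b1 and Cyp3a9) and 2 were lower (Cyp2a2 and Cyp2c23). Calls were made with limma on log2(FPKM + 1), at an adjusted p (Benjamini-Hochberg over 9710 genes) under 0.05, and fold changes are on that scale. Of the 39 members 36 were tested and 6 called (16.7%), where 4.48% of all genes tested were called. Of the 36, 4 were called higher and 2 lower, where 2.27% of all genes were called higher and 2.21% lower. Cyp1b1, Cyp2b1 and Cyp4f37 missed the filter of 1 FPKM in at least 4 of the 8 liver libraries. The median log2 fold change was 0.02 over the 36 members, with 19 positive and 17 negative, and -0.002 over all genes. The LA and PF livers did not overlap for 10 members (27.8%), where they did not for 12.3% of all genes tested. In bulk tissue, fewer cells of a type and less RNA per cell cannot be told apart.

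**Figure D2:**
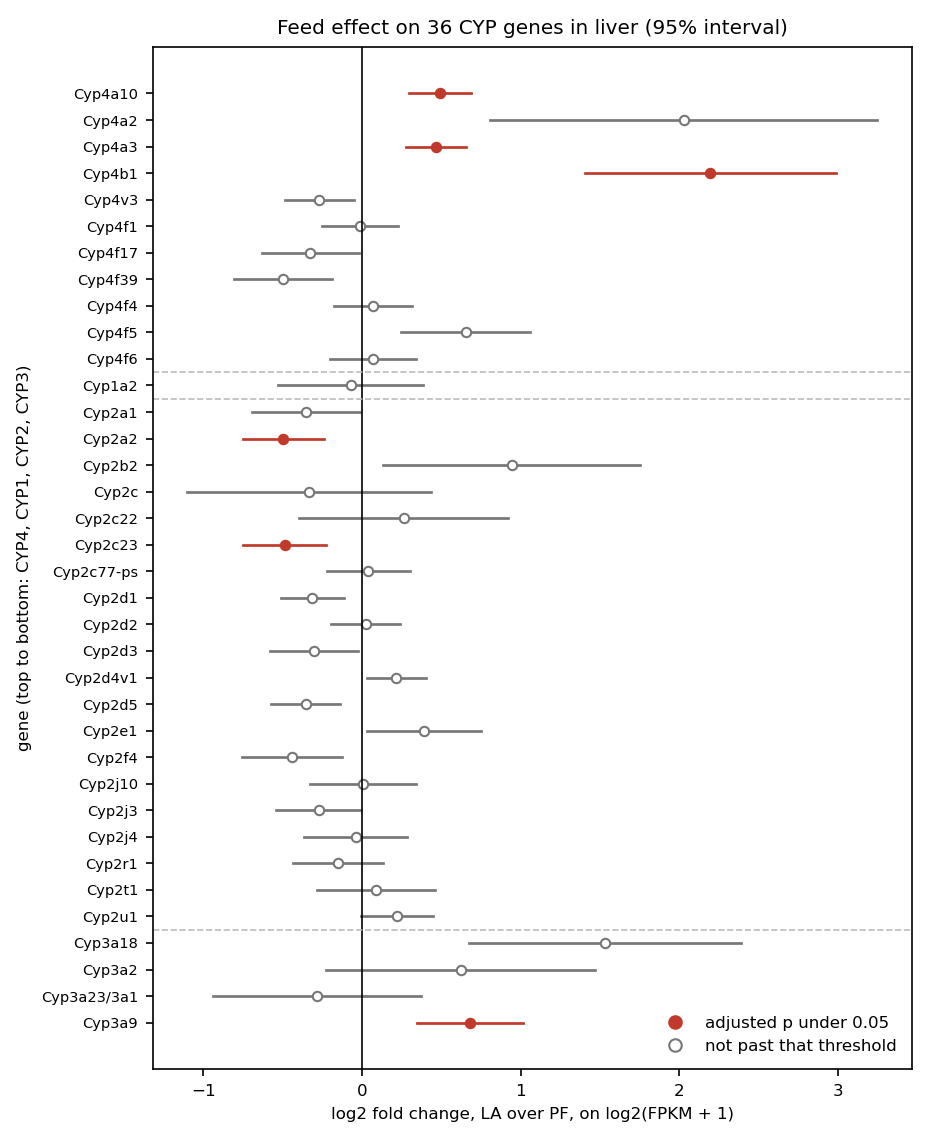
Log2 fold change of LA over PF in liver for the 36 members tested, with 95% intervals, by family from top to bottom; filled points passed an adjusted p under 0.05. The CYP4A genes and Cyp4b1 lie right of 0, at 0.47 to 2.20, while the CYP4F genes lie on both sides of it.

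Among the fatty acid hydroxylases, the 3 CYP4A genes were each higher in every LA liver than in any PF liver, and 2 of them passed the test. Cyp4a3, which hydroxylates fatty acids including arachidonic acid, stood at 159, 198, 171 and 173 FPKM in the LA livers, against 129, 131, 114 and 130.2 FPKM in the PF livers. PF replicate 3 was the lowest library. The log2 fold change was 0.47 (SE 0.09, adjusted p = 0.013, limma), a 1.38-fold rise.

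Cyp4a10, which the GRCr8 table lists as Cyp4a1, a lauric acid hydroxylase of rat liver, stood at 98.6, 114, 96.6 and 118 FPKM in the LA livers, against 75.5, 69.9, 72.8 and 83.5 FPKM in the PF livers. All LA livers lay above all PF livers, and the log2 fold change was 0.49 (SE 0.09, adjusted p = 0.013, limma). Both calls held in all 8 fits that left out 1 liver library. With all 16 libraries in one model both were lost, at adjusted p = 0.10 for Cyp4a10 and 0.13 for Cyp4a3. Over the 15 alternatives the adjusted p was 0.013 to 0.10 for Cyp4a10 and 0.013 to 0.13 for Cyp4a3.

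Cyp4a2, an arachidonic acid hydroxylase best known from rat kidney, varied far more between animals. It stood at 28.0, 108, 54.4 and 107 FPKM in the LA livers, against 24.3, 4.09, 24.6 and 19.8 FPKM in the PF livers. LA replicates 2 and 4 were well above the other libraries, LA replicate 1 lay just above the highest PF liver, and PF replicate 2 was the lowest. The log2 fold change of 2.03 (SE 0.55) missed the threshold (limma, adjusted p = 0.065). It passed without LA replicate 1 (adjusted p = 0.036) and with all 16 libraries in one model (adjusted p = 0.016), and over the 15 alternatives the adjusted p was 0.016 to 0.18.

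Cyp4b1, which hydroxylates fatty acids and activates toxins in lung, stood at 12.1, 51.2, 21.0 and 42.4 FPKM in the LA livers, against 5.96, 5.46, 4.70 and 4.79 FPKM in the PF livers. The PF livers lay close together and every LA liver was above them, with LA replicates 2 and 4 the highest and LA replicate 1 the lowest, the same order of extremes as for Cyp4a2. The log2 fold change was 2.20 (SE 0.36, adjusted p = 0.0077, limma), a 4.58-fold rise. It was called in all 15 alternatives, at adjusted p = 0.00060 to 0.029.

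Cyp4b1 was also among the most abundant members in fat. The adipocyte markers Adipoq, Lep, Plin and Retn were listed at 0 in all 8 liver libraries, where a 0 can be a failed estimate. The 8 adipocyte markers together summed to 61.5 to 72.0 FPKM in LA liver and 58.1 to 70.4 FPKM in PF liver, against 36446 to 42793 FPKM in LA fat and 34432 to 39655 FPKM in PF fat. Most of the liver sum was Cidec, at 57.9 ± 3.22 FPKM in LA liver and 51.0 ± 2.79 FPKM in PF liver. Lipe was at 1.00 to 1.36 FPKM in LA liver and 0.722 to 0.930 FPKM in PF liver. Fabp4 was at 0.882 to 1.70 FPKM in LA liver and 0 to 1.25 FPKM in PF liver, with overlap. Cfd went the other way, at 4.79 to 8.26 FPKM in LA liver and 7.97 to 13.9 FPKM in PF liver. Of 4 adipocyte markers tested in liver, 3 had a positive log2 fold change and 0 were called by limma. Cyp4f17, the most abundant member in fat, stood at 2.40 to 2.92 FPKM in LA liver and 2.77 to 5.11 FPKM in PF liver. The part of adipocytes in the liver level of Cyp4b1 was not tested.

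**Figure D3:**
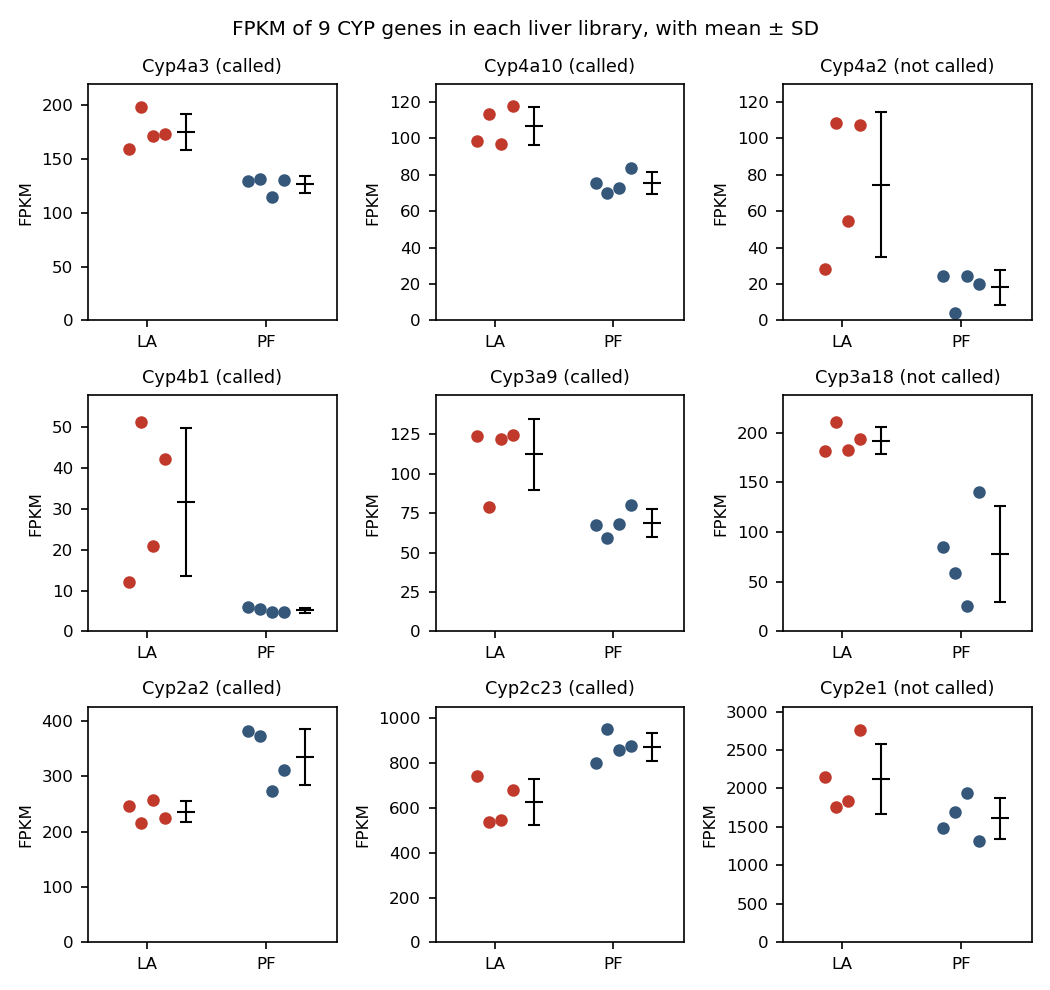
FPKM of 9 CYP genes in each liver library (points), LA left of PF, with the mean ± SD (n = 4) beside them. Cyp4a2 and Cyp4b1 spread widely among the LA livers (28.0 to 108 and 12.1 to 51.2 FPKM), while Cyp3a18 spreads among the PF livers (26.0 to 141 FPKM).

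The CYP4F genes, which inactivate leukotrienes and hydroxylate long-chain fatty acids, gave no call in liver. Of 6 tested, 3 had a positive and 3 a negative log2 fold change and 0 passed the limma test. An unadjusted limma p under 0.05 was reached by 3 of the 6, and by 1955 of all 9710 genes tested. Cyp4f1, the most abundant of them, stood at 268, 249.8, 229 and 243 FPKM in the LA livers, against 296, 258, 244 and 207 FPKM in the PF livers. The groups overlapped, and its log2 fold change was -0.01 with a 95% interval of -0.25 to 0.23. Cyp4f39, a hydroxylase of very long fatty acids in mouse skin, had the lowest log2 fold change of the 36 members. It stood at 2.18, 2.74, 2.04 and 1.84 FPKM in the LA livers, against 4.72, 3.53, 3.39 and 2.59 FPKM in the PF livers, and the groups overlapped at 1 library. The log2 fold change of -0.50 (SE 0.14) missed the threshold (limma, adjusted p = 0.074) and passed without PF replicate 4 (adjusted p = 0.034; 0.034 to 0.28 over the 15 alternatives). Cyp4f5 had a log2 fold change of 0.65 (adjusted p = 0.071, limma) at 1.18 to 2.98 FPKM in LA liver and 0.508 to 1.12 FPKM in PF liver. It passed the filter mainly through the LA livers. Cyp4v3, whose human counterpart hydroxylates fatty acids in the retina, averaged 56.9 ± 5.77 FPKM in LA liver and 68.8 ± 7.59 FPKM in PF liver (log2 fold change -0.27, adjusted p = 0.16, limma).

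In the drug-metabolising families CYP1, CYP2 and CYP3, 25 members were tested, with 1 higher and 2 lower, and a median log2 fold change of -0.04. The share called was 12%, where 4.48% of all genes tested were called. The CYP3A genes, broad oxidases of drugs and steroids, gave values in both directions. Cyp3a9, a form more abundant in female than in male rats, stood at 124, 78.7, 122 and 125 FPKM in the LA livers, against 67.7, 59.2, 68.1 and 80.2 FPKM in the PF livers. LA replicate 2 stood apart and lay just below the highest PF liver. The log2 fold change was 0.68 (SE 0.15, adjusted p = 0.030, limma). The call was lost in 6 of the 8 fits that left out 1 liver library, and was kept only without LA replicate 2 or PF replicate 4; the adjusted p in those 8 fits was 0.0050 to 0.077.

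Cyp3a18, a male-patterned form in rats, stood at 181, 211, 183 and 194 FPKM in the LA livers, against 84.7, 59.3, 26.0 and 141 FPKM in the PF livers. The LA livers lay close together above all PF livers, which spread widely. The log2 fold change of 1.53 (SE 0.39) missed the threshold (limma, adjusted p = 0.052). Settings under which it passed included leaving out PF replicate 3 or PF replicate 4 and all 16 libraries in one model, and the adjusted p over the 15 alternatives was 0.012 to 0.14. Cyp3a2, another male-patterned form, averaged 103 ± 37.8 FPKM in LA liver and 70.8 ± 30.6 FPKM in PF liver (SD, n = 4 each; log2 fold change 0.62, adjusted p = 0.41, limma). Cyp3a23/3a1, the form that glucocorticoids and PXR ligands induce, stood at 450.0, 393, 454 and 425 FPKM in the LA livers, against 339.9, 613, 349 and 1028 FPKM in the PF livers. PF replicate 4 was the highest library, and the log2 fold change of -0.28 had a 95% interval of -0.94 to 0.37.

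Among CYP2 genes, 20 were tested and 2 called (10%), both lower, where 2.21% of all genes tested were called lower. Cyp2a2, a male-specific testosterone hydroxylase of rat liver, stood at 247, 215, 256 and 225 FPKM in the LA livers, against 381, 372, 273 and 312 FPKM in the PF livers. The groups did not overlap, and the log2 fold change was -0.50 (SE 0.11, adjusted p = 0.036, limma). Its neighbour Cyp2a1, another testosterone hydroxylase, had a log2 fold change of -0.35 (adjusted p = 0.23). Cyp2c23, which makes epoxides of arachidonic acid, stood at 745, 536, 547 and 681 FPKM in the LA livers, against 802, 953, 857 and 878 FPKM in the PF livers, again without overlap (log2 fold change -0.49, SE 0.12, adjusted p = 0.046, limma).

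Both falls were near the threshold. In the 8 fits that left out 1 liver library, Cyp2a2 was called only without PF replicate 3 (adjusted p = 0.018 to 0.11) and Cyp2c23 only without LA replicate 1 (adjusted p = 0.023 to 0.12). With all 16 libraries in one model neither was called (adjusted p = 0.29 for Cyp2a2 and 0.55 for Cyp2c23). Over the 15 alternatives the adjusted p was 0.018 to 0.29 for Cyp2a2 and 0.023 to 0.55 for Cyp2c23, and the log2 fold change stayed negative in each, at -0.59 to -0.43 and -0.57 to -0.42.

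Cyp2e1, which oxidises ethanol, acetone and other small molecules, was the most abundant member. It stood at 2145, 1761, 1836 and 2766 FPKM in the LA livers, against 1493, 1698, 1936 and 1324 FPKM in the PF livers. PF replicate 3 lay above LA replicates 2 and 3, and the log2 fold change of 0.39 (SE 0.16) missed the threshold (limma, adjusted p = 0.21). Cyp2c, listed in GRCr8 as Cyp2c11, the dominant male-specific steroid hydroxylase of rat liver, stood at 727, 876, 477 and 578 FPKM in the LA livers, against 1001, 1644, 549.8 and 489 FPKM in the PF livers. The groups overlapped widely, and the 95% interval of its log2 fold change of -0.33 was -1.10 to 0.43. Cyp2c22, a retinoic acid hydroxylase in rats, had a value of 0.26 on the log2 scale (interval -0.40 to 0.92).

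The phenobarbital-inducible pair CYP2B, classical CAR targets, was low. Cyp2b2 stood at 13.1, 30.6, 18.8 and 18.6 FPKM in the LA livers, against 7.99, 12.2, 4.28 and 19.1 FPKM in the PF livers. The groups overlapped through PF replicate 4, and the log2 fold change of 0.94 (SE 0.37) missed the threshold (limma, adjusted p = 0.18). Cyp2b1, untested in liver, was listed at 0.826 to 2.06 FPKM in the LA livers and 0.308 to 0.667 FPKM in the PF livers. These did not overlap, but values near 1 FPKM rest on few fragments.

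The CYP2D genes, which oxidise amine drugs, gave no call among 5 tested. Cyp2d1 and Cyp2d5 did not overlap between feeds: Cyp2d5 averaged 76.8 ± 2.84 FPKM in LA liver and 99.1 ± 14.6 FPKM in PF liver (SD, n = 4 each), a log2 fold change of -0.35 (adjusted p = 0.067, limma). Cyp2d2, the most abundant of them, averaged 551 ± 71.2 FPKM in LA liver and 539.8 ± 26.7 FPKM in PF liver. The 3 tested CYP2J genes, which make epoxides of arachidonic acid, had log2 fold changes of -0.27 to 0.01 and none was called. Cyp1a2, the AhR-induced oxidase of caffeine and aromatic amines, was the only CYP1 gene tested in liver. It averaged 115 ± 33.5 FPKM in LA liver and 119 ± 24.3 FPKM in PF liver, and the 95% interval of its log2 fold change of -0.07 was -0.53 to 0.39. Cyp2r1, a vitamin D hydroxylase, had a log2 fold change of -0.15 (interval -0.43 to 0.13).

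Summed by family, CYP4A and the drug-metabolising families differed in how they stood between feeds. Since FPKM is scaled to length, levels can be added over genes. The sums leave out Cyp2c6, Cyp2c7 and Cyp2c13, listed at 0 in all 16 libraries, where a 0 can be a failed estimate. CYP4A summed to 285, 420.3, 322 and 397 FPKM in the LA livers, against 229, 205, 211 and 233 FPKM in the PF livers, 1.62-fold higher under LA and without overlap. Cyp4a2, which was not called, went into that sum at 74.5 ± 39.9 FPKM in LA liver and 18.2 ± 9.66 FPKM in PF liver. Cyp4a3 went in at 175 ± 16.7 FPKM in LA liver and 126 ± 8.08 FPKM in PF liver. Cyp4a10 went in at 107 ± 10.5 FPKM in LA liver and 75.4 ± 5.83 FPKM in PF liver. On the log2(FPKM + 1) scale these 2 genes rose 1.38-fold and 1.41-fold, less than the sum with Cyp4a2 in it. The sum without Cyp4a2 was not taken. CYP1, CYP2 and CYP3 together summed to 6672 ± 467 FPKM in LA liver and 6785 ± 742 FPKM in PF liver (SD, n = 4 each), a ratio of 0.983 with overlapping groups. For every 100 FPKM of CYP1, CYP2 and CYP3, CYP4A had 5.37 ± 1.07 FPKM in LA liver and 3.27 ± 0.429 FPKM in PF liver, and the groups did not overlap (4.08 to 6.67 against 2.63 to 3.52). No p-value is given for these sums, because they score genes chosen as a set.

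Within the drug-metabolising families the direction of the mean difference varied between genes. CYP2A summed to 531 ± 51.8 FPKM in LA liver and 716 ± 55.0 FPKM in PF liver, without overlap. CYP2C summed to 2006 ± 279 FPKM in LA liver and 2396 ± 660.1 FPKM in PF liver, with overlap. Cyp2e1, which was not called, made up 28.4% of the summed level of all 39 members in LA liver and 21.7% in PF liver. Without Cyp2e1 the log2 ratio of the CYP1, CYP2 and CYP3 sum was -0.19 in place of -0.02. CYP4F summed to 371 ± 26.8 FPKM in LA liver and 369.8 ± 44.5 FPKM in PF liver. All members together summed to 7487 ± 488 FPKM in LA liver and 7448 ± 742 FPKM in PF liver.

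**Figure D4:**
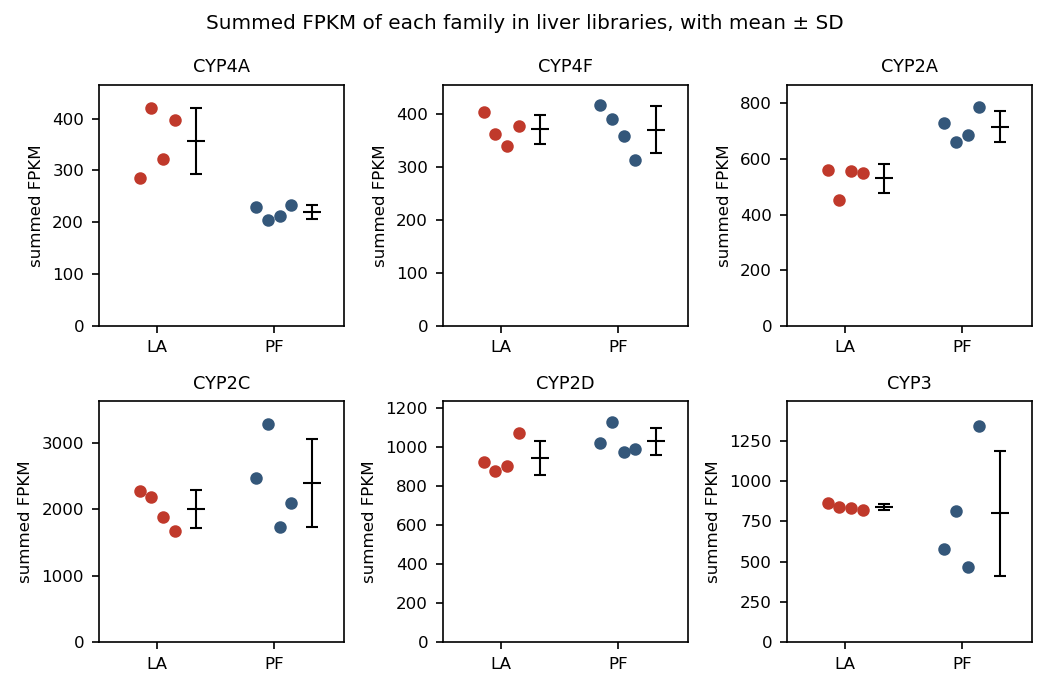
Summed FPKM of 6 CYP families and subfamilies in each liver library (points), LA left of PF, with the mean ± SD (n = 4) beside them. The CYP4A sums lie higher (285 to 420.3 against 205 to 233) and the CYP2A sums lower (454 to 561 against 661 to 787) in the LA livers, and the other sums overlap.

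Among 25 tested regulators of CYP genes, 1 was called in liver, where 4.48% of all genes tested were called. Nr1i3 (CAR) averaged 6.12 ± 2.05 FPKM in LA liver and 2.92 ± 0.615 FPKM in PF liver (SD, n = 4 each), and its log2 fold change was 0.83 (SE 0.19, adjusted p = 0.036, limma). Nr1i2 (PXR) averaged 58.5 ± 7.19 FPKM in LA liver and 58.1 ± 7.65 FPKM in PF liver, and Ppara 14.8 ± 1.00 FPKM in LA liver and 15.1 ± 2.17 FPKM in PF liver. Ahr had a log2 fold change of -0.42 (adjusted p = 0.052, limma). Of 8 redox partners, Cyb5r3, the reductase of cytochrome b5, was lower at 105 ± 17.7 FPKM in LA liver and 167 ± 22.7 FPKM in PF liver (log2 fold change -0.68, adjusted p = 0.019). Por, the reductase that serves all microsomal CYPs, averaged 78.4 ± 4.61 FPKM in LA liver and 98.8 ± 34.6 FPKM in PF liver and was not called (adjusted p = 0.51).

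Other genes that the same receptors control gave mixed counts. Of all genes tested in liver, 4.48% were called, 2.27% higher and 2.21% lower. Of 25 tested PPARα targets outside the CYP families, 5 were higher (Acot2, Acot3, Vnn1, Slc25a20 and Pex11a) and 1 was lower (Acsl1), with a median log2 fold change of 0.14. Acot2, a mitochondrial thioesterase, averaged 26.2 ± 12.1 FPKM in LA liver and 6.14 ± 0.333 FPKM in PF liver (log2 fold change 1.81, adjusted p = 0.0050, limma). Of 11 tested CAR and PXR targets, Ces2 (1.13) and Abcb1a (0.71) were higher and Ugt1a1 (-0.81) was lower on the log2 scale. Of 3 tested AhR targets, Ugt1a6, a glucuronosyltransferase, was higher (1.33, adjusted p = 0.0055). Ugt1a1 and Ugt1a6 are alternative products of a single locus that share exons, so their separate levels are uncertain.

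Some markers of cell types and states differed with feed in the same livers, where 4.48% of all genes tested were called by limma. Of 4 adipocyte, 3 fibroblast and stellate and 1 mesothelial markers tested, 0 were called. The 9 tested hepatocyte markers all had negative log2 fold changes (median -0.35), and 2 were called lower. The 11 measured hepatocyte markers summed to 35283 to 43391 FPKM in LA liver and 48025 to 58104 FPKM in PF liver, with Alb and Tf at 0. Of 8 macrophage markers 2 were higher (median 0.59), with sums of 165 to 249 FPKM in LA liver and 109 to 140 FPKM in PF liver and Marco at 0. Of 18 interferon-response genes 14 were higher (median 1.67), and of 13 acute-phase genes, 4 of which are also on the hepatocyte list, 3 were lower (median -0.31). Of markers of the hepatocytes around the central vein, where many CYP genes are strongest, 1 of 7 was called, higher, and 0 of 9 periportal markers were. Of those 7, 4 had a positive log2 fold change (median 0.04). The sum of the 9 measured central-vein markers was lower in every LA liver, at 871 to 1422 FPKM against 1455 to 1647 FPKM in PF liver. The periportal sums overlapped, at 4800 to 6567 FPKM in LA liver and 6019 to 6575 FPKM in PF liver. Of 11 tested growth hormone and sex-patterned liver genes outside the CYP families, 1 was lower (Prlr, the prolactin receptor, log2 fold change -0.72, adjusted p = 0.035, limma), and of 4 endothelial markers 1 was lower (Stab2, -0.50). Their part in the CYP differences was not tested.

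The fat comparison asked the same question in adipose tissue. In fat 0 of 26 tested members were called by limma, where 0.0174% of the 11501 genes tested were called. An unadjusted p under 0.05 was reached by 0 of the 26, and by 451 of the 11501 genes. The other 13 members missed the filter of 1 FPKM in at least 4 fat libraries. Log2 fold changes ranged over -0.77 to 0.65, with a median of -0.17 against 0.01 over all genes, and every adjusted p was 1.00. The members most abundant in fat included Cyp4f17 and Cyp1b1, neither of which was called. Cyp4f17 averaged 38.6 ± 5.39 FPKM in LA fat and 45.0 ± 6.04 FPKM in PF fat, and Cyp1b1, an oxidase of oestradiol, 14.5 ± 2.80 FPKM in LA fat and 13.3 ± 2.33 FPKM in PF fat (SD, n = 4 each). Cyp4b1 stood at 36.4, 36.5, 31.2 and 27.2 FPKM in LA fat, against 28.4, 37.6, 21.6 and 19.5 FPKM in PF fat. The groups overlapped, and the log2 fold change of 0.32 had a 95% interval of -0.11 to 0.75.

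Cyp2b1 had the highest log2 fold change in fat, 0.65 (SE 0.32). It stood at 2.80, 3.04, 3.06 and 10.4 FPKM in LA fat, against 2.52, 1.91, 2.31 and 2.49 FPKM in PF fat, so LA replicate 4 alone was far above the rest although the groups did not overlap. It was the only tested member without overlap in fat, 3.85% of the 26 against 2.08% of all genes. Cyp2d1, next after Cyp4b1, stood at 10.2, 6.14, 8.16 and 5.73 FPKM in LA fat, against 6.70, 7.28, 5.69 and 5.45 FPKM in PF fat, with overlap (log2 fold change 0.21). The lowest values were those of Cyp2e1 (-0.77), Cyp2c23 (-0.76) and Cyp3a23/3a1 (-0.67), all liver-abundant genes. Cyp4a3, the only CYP4A gene tested in fat, was at 0.206 to 1.18 FPKM in LA fat and 0.573 to 1.41 FPKM in PF fat (log2 fold change -0.26, interval -0.74 to 0.22). Cyp4a10 was at 0.0699 to 1.21 FPKM in LA fat and 0.466 to 0.749 FPKM in PF fat. Cyp4a2 was at 0 to 0.158 FPKM in LA fat and 0.288 to 0.715 FPKM in PF fat, below the filter.

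Most liver-abundant CYP genes were present in fat at a small percentage of their liver level. Of 20 members at 50 FPKM or more in PF liver, 17 were under 2% of the mean liver level of the same feed in every fat library. The exceptions were Cyp2d1 (4.00% to 9.36%), Cyp2d5 (up to 2.25%) and Cyp4v3 (16.5% to 26.5%). Over the 17 genes the median share was 0.423%, 0.329%, 0.928% and 0.0947% in the LA fat libraries, against 0.746%, 0.512%, 0.434% and 1.00% in the PF fat libraries. The same medians over 9 hepatocyte markers were 0.415%, 0.332%, 0.965% and 0.105% in the LA fat libraries, against 0.526%, 0.371%, 0.446% and 0.856% in the PF fat libraries. Both sets were lowest in LA replicate 4 and highest in LA replicate 3 and PF replicate 4. All 11 hepatocyte markers had negative log2 fold changes in fat (median -0.77), and 0 were called. Of 18 interferon-response genes and 8 macrophage markers 0 were called in fat, with medians of 0.54 and 0.49. Their part in the fat levels of these CYP genes was not tested.

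**Figure D5:**
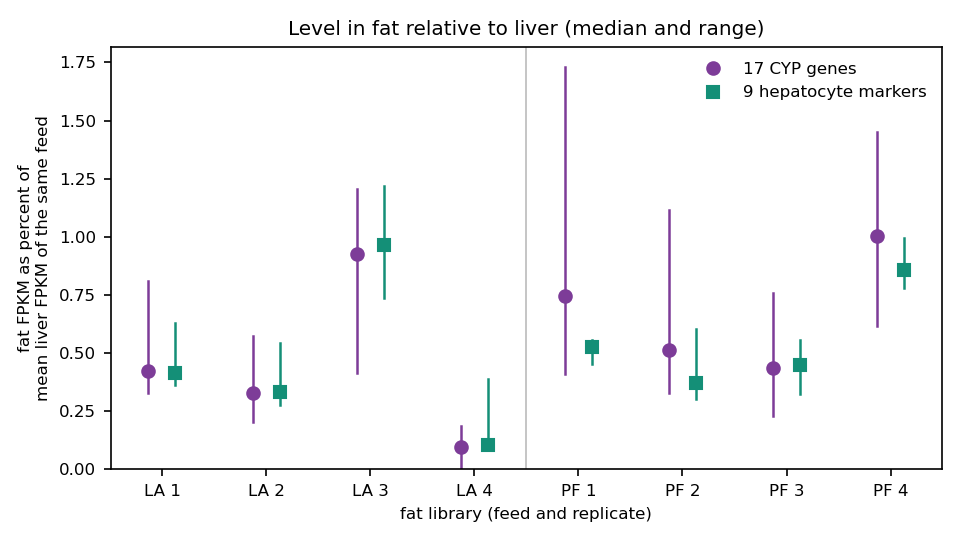
Level in each fat library as a percent of the mean liver FPKM of the same feed: median (symbol) and range (line) over 17 liver-abundant CYP genes and 9 hepatocyte markers, LA left of PF. The CYP medians span 0.0947% in LA replicate 4 to 1.00% in PF replicate 4, and the marker medians 0.105% in LA replicate 4 to 0.965% in LA replicate 3.

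Between tissues the families split. Calls here also needed a log2 fold change over 1 in size. In LA rats 36 of 39 members were called, 29 higher and 7 lower in liver than in fat, where 46.4% of all genes were called (10.5% higher and 36% lower). In PF rats 37 were called, 29 higher and 8 lower, where 47.4% of all genes were called. A gene that is high in a single tissue meets the membership level through that tissue, so these counts describe the set. Centring each library on its median gene raised each liver-over-fat log2 value by 0.63 in LA rats and 0.58 in PF rats. It gave 30 higher and 3 lower in LA rats and 30 higher and 5 lower in PF rats.

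The 5 highest members of LA liver were Cyp2e1 (2127 ± 457 FPKM), Cyp2c22 (697 ± 207), Cyp2c (664 ± 175), Cyp2c23 (627 ± 102) and Cyp2d2 (551 ± 71.2 FPKM; SD, n = 4). In PF liver they were Cyp2e1 (1613 ± 264 FPKM), Cyp2c (921 ± 533), Cyp2c23 (873 ± 62.6), Cyp2c22 (585 ± 185) and Cyp3a23/3a1 (582 ± 323 FPKM). Below Cyp2e1 the libraries of neighbours in each order overlapped, except that Cyp2c23 (802 to 953 FPKM) lay above Cyp2c22 (311 to 716 FPKM) in PF liver. Cyp2e1 stood at 7.50 ± 5.36 FPKM in LA fat and 12.0 ± 4.82 FPKM in PF fat.

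In fat the order was another one, led by family 4. The 5 highest members of LA fat were Cyp4f17 (38.6 ± 5.39 FPKM), Cyp4b1 (32.8 ± 4.49), Cyp4v3 (14.7 ± 0.445), Cyp1b1 (14.5 ± 2.80) and Cyp2d4v1 (14.5 ± 2.47 FPKM; SD, n = 4). In PF fat they were Cyp4f17 (45.0 ± 6.04 FPKM), Cyp4b1 (26.8 ± 8.16), Cyp1b1 (13.3 ± 2.33), Cyp4v3 (12.9 ± 1.18) and Cyp2d4v1 (12.8 ± 2.32 FPKM), and the last 3 lay within their spread under both feeds. CYP4 made up 57.6% of the summed level of all members in LA fat and 56.4% in PF fat, against 10.9% in LA liver and 8.97% in PF liver. CYP2 made up 33.7% in LA fat and 34.8% in PF fat, against 76.3% in LA liver and 78.7% in PF liver. These shares are of the 39 members only, without the symbols listed at 0 in every library.

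The CYP4F genes divided between the tissues. Cyp4f1 (6.98 in LA rats and 6.53 in PF rats), Cyp4f4 (6.02 and 5.73) and Cyp4f6 (1.48 and 1.41) were higher in liver on the log2 scale. Cyp4f17 (-3.41 and -3.30), Cyp4f37 (-2.46 and -3.12), Cyp4f5 (-1.40 and -2.17) and Cyp4f39 (-1.39 and -1.14) were higher in fat. After median centring Cyp4f39 (-0.77 in LA rats and -0.56 in PF rats) and Cyp4f5 in LA rats (-0.78) no longer passed the limit of 1, and neither did Cyp2b1 and Cyp2u1 under either feed. Cyp1b1 was at 0.0379 FPKM or less in the LA livers and listed at 0 in all PF livers. The pair CYP2B also divided: Cyp2b2 averaged 20.3 ± 7.40 FPKM in LA liver and 0.0377 ± 0.0316 FPKM in LA fat, while Cyp2b1 averaged 1.36 ± 0.549 FPKM in LA liver and 4.83 ± 3.73 FPKM in LA fat. Cyp2d4v1, listed in GRCr8 as Cyp2d4, a form known from brain, was at 16.9 ± 1.83 FPKM in LA liver and 14.5 ± 2.47 FPKM in LA fat and was not called in either feed.

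Cyp4b1 differed between tissues in PF rats, at 5.23 ± 0.597 FPKM in liver and 26.8 ± 8.16 FPKM in fat (SD, n = 4 each; log2 fold change -2.12, SE 0.18, adjusted p = 5.8e-07, limma). In LA rats it averaged 31.7 ± 18.2 FPKM in liver and 32.8 ± 4.49 FPKM in fat, a log2 fold change of -0.24 with a 95% interval of -1.07 to 0.58 (0.39 after median centring, not called).

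The difference between the feed effects of the tissues was tested as liver LA minus PF less fat LA minus PF. Of the 39 members 0 were called by limma, where 0.381% of 12079 genes were called, and 12 members had an unadjusted p under 0.05, where 991 of the 12079 genes did. Cyp4b1 came nearest, with a difference of 1.88 on the log2 scale (SE 0.45, adjusted p = 0.096). The CYP4A differences were 2.41 for Cyp4a2 (SE 0.64, adjusted p = 0.16), 0.73 for Cyp4a3 (SE 0.23, adjusted p = 0.26) and 0.49 for Cyp4a10 (SE 0.22, adjusted p = 0.56). Without LA liver replicate 1, Cyp4a2 (adjusted p = 0.044) and Cyp4b1 (adjusted p = 0.0089) were called, and without PF liver replicate 4, Cyp3a18 was (adjusted p = 0.029, limma).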

How the data were processed

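RNA was measured by sequencing in 16 libraries from 8 rats, with 4 libraries in each of 4 groups. The deposited files hold FPKM values, 1 per gene symbol and library, made by the authors with CASAVA 1.8.2, TopHat and Cuffdiff, per the submitters' processing notes. Of the genome build, the annotation and the treatment of reads shared between copies, nothing is stated in the labels or the file headers. FPKM holds no counts, so no count model was used and no interval for counting error is given. The kit named in the labels does not mark strand, so reads of overlapping genes on opposite strands cannot be told apart.

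Values were taken as log2(FPKM + 1) and tested with limma (version 3.58.1, under R 4.3.3), using eBayes with its trend option. Genes entered a fit when 4 or more of its libraries reached 1 FPKM, and p-values were adjusted over all of them by Benjamini and Hochberg's method. Each comparison was fitted on its own 8 libraries, and the difference of feed effects on all 16. Libraries of 1 group correlated at r = 0.986 to 0.996 across genes, and 0 pairs held identical values. Which liver and fat libraries share a rat is not stated, so tissues were compared unpaired.

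All 39 members were followed. Described in full were called members, every CYP4A gene, the 3 highest and 3 lowest log2 fold changes of each feed comparison and the 5 most abundant members of each tissue. Others were named where they are the best known of a subfamily. The members and gene lists were chosen with earlier results of these data known. Of the members, 34 matched the RefSeq GRCr8 table by symbol and 4 by an older name, and 1 (Cyp2c77-ps) did not match. Alternatives were another pseudocount, no filter, median centring, a replicate block, no trend, 1 model over all 16 libraries, a looser threshold and each library left out. The sums without each liver library were an alternative chosen after seeing the data.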

Additional observations from a re-analysis of the deposited data

Results flagged for a closer look

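In 10 of 122 gene and group combinations averaging at least 1 FPKM, a single library lay far from the other 3 by Dixon's criterion; chance gives about 1 in 20. In liver these were Cyp2d2 in LA replicate 4 (658 FPKM), Cyp3a9 in LA replicate 2 (78.7 FPKM), Cyp3a2 in PF replicate 3 (25.2 FPKM), Cyp4a3 in PF replicate 3 (114 FPKM), and Cyp2j10 (2.31 FPKM) and Cyp2j4 (22.0 FPKM) in PF replicate 4. In fat they were Cyp2b1 in LA replicate 4 (10.4 FPKM), Cyp2d4v1 in PF replicate 1 (16.2 FPKM), and Cyp2d3 (2.55 FPKM) and Cyp3a23/3a1 (5.84 FPKM) in PF replicate 4.

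For 1 member, Cyp4a2, the LA and PF libraries did not overlap in either tissue and lay in opposite directions, higher under LA in liver and lower under LA in fat. Its fat values were 0.109, 0.0927, 0.158 and 0 FPKM in LA fat, against 0.715, 0.288, 0.293 and 0.402 FPKM in PF fat, all under 1 FPKM. The difference of the feed effects missed the threshold (limma, adjusted p = 0.16). Of all genes tested, 12.3% did not overlap between feeds in liver and 2.08% in fat. How many genes outside the set lay in opposite directions in this way was not counted.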

How the results depend on the processing

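In liver the 6 calls became 3 without the filter on low values (Cyp4a10, Cyp4a3 and Cyp4b1), 12 at an adjusted p under 0.1, and 3 to 6 when 1 library was left out, with 3 without LA replicate 3, LA replicate 4, PF replicate 1 or PF replicate 2. With all 16 libraries in one model there were 5 calls, all higher (Cyp3a18, Cyp3a9, Cyp4a2, Cyp4b1 and Cyp4f5), 2 of them shared with the 6. Deviations of samples with the same replicate number correlated at r = 0.004 to 0.15 between feeds in liver, -0.43 to -0.06 between feeds in fat, -0.23 to 0.12 between tissues in LA rats and -0.03 to 0.30 between tissues in PF rats. In the PF tissue comparison 3 of 4 numbers correlated best with their own. Not every pair of any comparison exceeded 0.1, so the numbers were not taken as pairs. A replicate block gave 7 calls in liver (5 higher and 2 lower, 4 shared with the 6), adding Cyp3a18, Cyp2f4 and Cyp4f39 and losing Cyp2a2 and Cyp2c23. It gave 0 calls in fat, 36 between tissues in LA rats, 37 in PF rats and 0 for the difference of feed effects. Fat gave 0 calls under every alternative. For the difference of feed effects, leaving out 1 library gave 0 to 2 calls, and an adjusted p under 0.1 gave 1. The share of all genes called under each alternative is not given here. These counts therefore do not compare the members with all genes. The log2 ratio of the CYP4A sums in liver was 0.70 and 0.61 to 0.79 with 1 library left out. It was 0.95 without the most abundant member, Cyp4a3, a setting that kept the widely spread Cyp4a2 in the sum. That of CYP1, CYP2 and CYP3 was -0.02, -0.19 without Cyp2e1 and -0.08 to 0.05 with 1 library left out. The cause of these shifts was not tested. No result changed direction past the threshold. Values near 1 FPKM rest on few fragments, and without counts their error cannot be given.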
